A study of Mus musculus with 16 samples.

Results

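The 77 genes described here encode the numbered proteins of the mitochondrial ribosome and were compared between P6D4 and 70Z/3, a pair of mouse lymphoid cell lines. They were chosen by symbol, as every gene named Mrpl or Mrps followed by a number and not marked as a pseudogene, out of 38293 genes in the deposited count tables. P6D4 carries the cell type label SCID.adh murine thymic lymphoma and the stage label DN3, an early thymocyte stage, and 70Z/3 is labelled as a Pre-B lymphoblast, a precursor in the B lineage. No treatment is given for either line, and each is a single line, so the comparison is between these lines and not between the T and B lineages at large. RNA-Seq was done on 3 libraries of P6D4 and 3 of 70Z/3. ChIP-Seq with an antibody to Miz1 was done on 1 library of each, so values taken from the peaks stand without replicates. The samples for histone marks and inputs are not analysed here.

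The mitochondrial ribosome translates the few messengers carried by mitochondrial DNA, all of which encode subunits of the respiratory chain and of ATP synthase. Its ribosomal RNAs come from mitochondrial DNA too, while all of its proteins are encoded in the nucleus, made in the cytosol and imported. Some of these proteins have relatives in the bacterial ribosome, and others were gained in mitochondria. Zbtb17 encodes Miz1, a DNA-binding protein with zinc fingers that activates some genes alone and represses others together with Myc.

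Counts in genes were 54.8, 52.1 and 48.3 M in the P6D4 libraries and 47.6, 48.9 and 45.5 M in the 70Z/3 libraries. Nothing in the labels says that replicates are separate cultures, and the p-values below thus reflect the spread among these libraries, which may be technical. All 9 thymocyte markers were higher and all 8 pre-B markers lower in P6D4, as the stage labels would have them. Of 6 myeloid markers, 1 was higher and 2 lower in P6D4, with summed levels of 27.5 to 34.1 CPM in P6D4 and 21.2 to 23.0 CPM in 70Z/3. The sum in P6D4 was nearly all Itgam, at a mean of 29.1 CPM against 7.07 CPM in 70Z/3. Lower in P6D4 were Lyz2, at 1.96 against 12.3 CPM, and Csf1r, at 0.012 against 2.84 CPM. Erythroid markers summed to 0.577 to 0.636 CPM in P6D4 and 0.866 to 0.953 CPM in 70Z/3, and of 5 of them only Klf1 could be tested. The sum of 5 stromal markers, 57.0 to 65.2 CPM in P6D4 and 80.5 to 86.6 CPM in 70Z/3, was nearly all Pecam1, and Col3a1 had 0 counts in every library. The part of these markers in the results below was not tested.

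Promoter sequences are shown for some of the genes on which the results turn. Mrps34, the most raised gene, and Mrpl54 had no promoter in the set used, so theirs are not shown. Mrps15 and Mrpl45 were the genes with a Miz1 peak summit near a gene end, Mrps12 was among the most raised in P6D4 and Mrpl44 was the most lowered. Each runs 5′ to 3′ on the gene's strand, from 250 bases before to 50 bases after the start in RefSeq (build GRCm38.p6). Capitals mark 3 of the motifs that were searched, the CCAAT box, the core of ETS sites and a variant core of YY1 sites, in either orientation. Their letters are given further down.
Mrps15: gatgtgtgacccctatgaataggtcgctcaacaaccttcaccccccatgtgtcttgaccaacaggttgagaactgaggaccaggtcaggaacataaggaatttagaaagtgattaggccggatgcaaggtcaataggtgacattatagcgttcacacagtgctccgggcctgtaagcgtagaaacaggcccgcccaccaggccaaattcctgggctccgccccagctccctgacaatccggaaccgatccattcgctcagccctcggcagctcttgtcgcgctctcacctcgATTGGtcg
Mrpl45: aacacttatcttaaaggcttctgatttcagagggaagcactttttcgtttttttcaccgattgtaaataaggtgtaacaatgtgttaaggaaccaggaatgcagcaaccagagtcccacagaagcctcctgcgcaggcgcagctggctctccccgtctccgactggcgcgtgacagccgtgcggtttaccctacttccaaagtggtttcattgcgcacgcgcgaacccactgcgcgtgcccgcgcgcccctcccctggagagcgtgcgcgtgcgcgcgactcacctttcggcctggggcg
Mrps12: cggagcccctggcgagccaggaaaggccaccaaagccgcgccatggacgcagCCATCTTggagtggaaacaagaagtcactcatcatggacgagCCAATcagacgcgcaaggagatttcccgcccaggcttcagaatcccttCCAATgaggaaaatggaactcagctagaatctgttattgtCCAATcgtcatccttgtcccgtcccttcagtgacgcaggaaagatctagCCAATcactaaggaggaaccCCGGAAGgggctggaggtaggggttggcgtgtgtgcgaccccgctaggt
Mrpl44: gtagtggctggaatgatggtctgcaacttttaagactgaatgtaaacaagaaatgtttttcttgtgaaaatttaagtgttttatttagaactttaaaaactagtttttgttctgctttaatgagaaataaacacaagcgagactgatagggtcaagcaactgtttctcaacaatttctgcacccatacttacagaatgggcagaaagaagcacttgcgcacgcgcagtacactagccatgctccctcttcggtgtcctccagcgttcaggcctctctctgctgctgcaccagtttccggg
The Mrps15 window lies on the plus strand at chr4:126046678-126046977, and that of Mrpl45 on the plus strand at chr11:97315466-97315765. The Mrps12 window is on the minus strand at chr7:28741772-28742071, and that of Mrpl44 on the plus strand at chr1:79775768-79776067. Mrpl44 had the lowest GC content of these windows, 42.3%, with 7 CG pairs, against 57.7% and 27 CG pairs in Mrpl45.

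All 77 genes had enough counts to be tested. More of them were higher than lower in P6D4, and nearly all differences were small. At an adjusted p under 0.05 in the edgeR quasi-likelihood test, 41 rose in P6D4, 20 fell and 16 were not called. Over all 13750 genes tested, 43.3% were higher and 43.2% lower, so the share called among the mitochondrial ribosomal protein genes, 79.2%, was below the 86.5% of all genes, while 53.2% of them were called higher and 26.0% lower. The median log2 fold change was 0.12, against 0.01 over all genes tested. The genes took 0.419, 0.401 and 0.396% of counts in the P6D4 libraries and 0.353, 0.372 and 0.366% in the 70Z/3 libraries, so the lines did not overlap. In bulk RNA, fewer cells that express a gene and less of its RNA per cell cannot be told apart.

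Differences were smaller among these genes than over the table as a whole. Log2 fold changes lay within 0.5 of 0 for 53 of the 77 genes (68.8%), against 41.0% of all genes tested. The share was 40.7% of the 10339 genes between the lowest and the highest mean level of the family. That range is wide, since Mrpl53 sets its low end at 0.557 CPM. Its median level was 24.7 CPM against 44.3 CPM in the family, so the 2 sets are not matched in expression. Within 1 of 0 lay 73 of the 77 (94.8%), against 61.4% of all genes. The quartiles of the log2 fold change were -0.11 and 0.45, against -0.69 and 0.66 over all genes. Against a 1.5-fold difference (glmTreat of edgeR), 10 were higher and 5 lower, where 23.9% and 25.1% of all genes were. Of the 77, 3 were higher and 1 lower by more than 2-fold, where 16.6% and 18.6% of all genes were. Replicates of a line lay close together, with a median coefficient of variation of 3.33% in P6D4 and 3.73% in 70Z/3. In CPM, all P6D4 libraries lay above all 70Z/3 libraries for 42 genes and below them for 18, and the lines overlapped for 17. Over all genes tested, 43.8% lay above and 43.6% below, 87.4% in all.

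**Figure D1:**
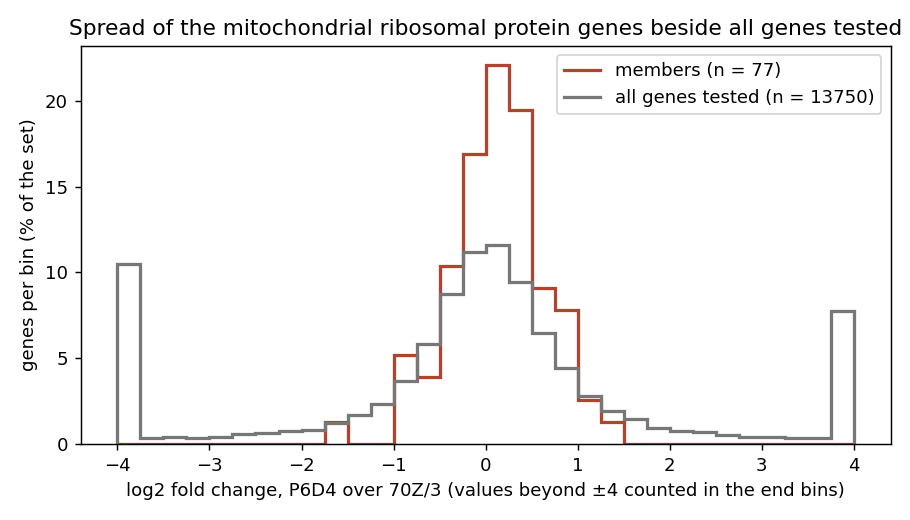
The share of genes per bin (y axis, % of the set) by log2 fold change, P6D4 over 70Z/3 (x axis), is drawn for the 77 mitochondrial ribosomal protein genes in red and all 13750 genes tested in grey, with values beyond the axis in the end bins. The red outline is the narrower one, with 94.8% of its genes within 1 of 0 against 61.4% of all genes.

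Both subunits of the ribosome had more genes called higher than lower in P6D4. Of 50 proteins of the large subunit, 29 rose in P6D4, 13 fell and 8 were not called, and the median log2 fold change was 0.16. Mrps18a and Mrps30 are counted there, since in mammals both proteins sit in the large subunit. Of 26 small subunit proteins, 11 rose, 7 fell and 8 were not called, and the median was 0.07. The small subunit thus had 42.3% of its genes called higher, near the 43.3% of all genes tested. Its share called lower, 26.9%, was below their 43.2%. In the large subunit 58% were higher and 26% lower. Among 45 proteins listed with a bacterial relative, 23 were higher, 12 lower and 10 not called (median 0.11). Among 31 listed as mitochondrial only, 17 were higher, 8 lower and 6 not called (median 0.15). Mrps18a and Mrps18b were listed as mitochondrial only and Mrps18c with a bacterial relative, so the split depends on that list. Called higher were 51.1% of those with a bacterial relative and 54.8% of those listed as mitochondrial only, and called lower 26.7% and 25.8%. Neither split was tested. The remaining gene, Mrps36, is named as a ribosomal protein, but its product is now known as a component of the 2-oxoglutarate dehydrogenase complex. Its RNA averaged 21.3 ± 0.57 CPM in P6D4 libraries and 13.5 ± 0.79 CPM in 70Z/3 libraries (SD, n = 3), higher by 0.66 on the log2 scale (edgeR quasi-likelihood adjusted p = 1.63e-07).

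**Figure D2:**
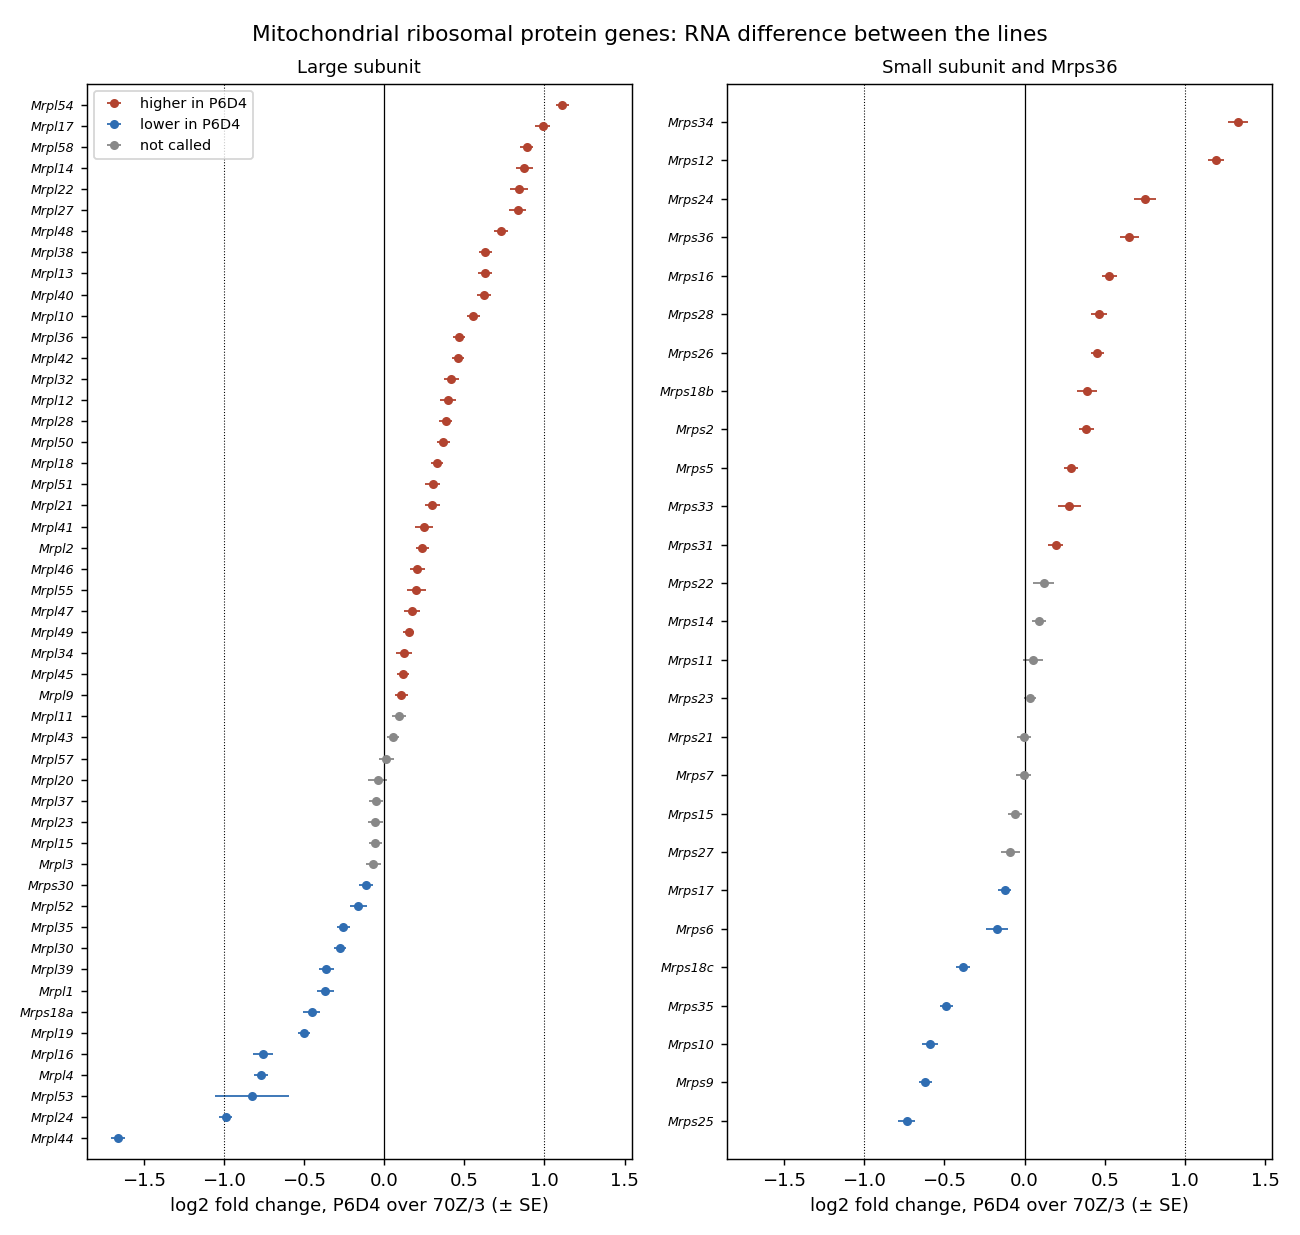
Log2 fold change, P6D4 over 70Z/3, is drawn on the x axis for each gene, with bars of 1 SE, for the large subunit on the left and the small subunit with Mrps36 on the right. Red marks the 41 genes higher in P6D4, blue the 20 lower and grey the 16 not called, and dotted lines mark a 2-fold difference in either direction, passed by 4 of the genes.

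Among small subunit proteins, Mrps34 and Mrps12 showed the highest rises. Mrps34, a protein found only in mitochondria that is needed for a stable small subunit, was at 57.3, 49.0 and 51.0 CPM in the P6D4 libraries and 19.7, 21.3 and 21.6 CPM in the 70Z/3 libraries. The lowest P6D4 library was well above the highest 70Z/3 library, and the fold was 2.51 (log2 1.33 ± 0.06, SE). Its adjusted p in edgeR's test was 1.22e-10 against no difference and 4.61e-05 against a 2-fold difference. Mrps12, the relative of the bacterial protein at the decoding centre, was at 40.1, 38.5 and 38.2 CPM in P6D4 and 16.2, 17.6 and 17.2 CPM in 70Z/3. The lines were well apart, with a fold of 2.29 (log2 1.20 ± 0.05, SE; edgeR adjusted p = 0.000554 against 2-fold). Mrps24, the relative of bacterial S3 at the messenger entry, averaged 42.8 ± 3.6 CPM in P6D4 libraries and 25.5 ± 1.9 CPM in 70Z/3 libraries (SD, n = 3), higher by 0.75 ± 0.07 on the log2 scale (SE). These 3 genes passed the test against 1.5-fold.

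Small subunit genes that fell did so by less. Mrps25, a mitochondrial protein without bacterial relative, was at 33.9, 34.5 and 33.5 CPM in P6D4 and 52.9, 61.1 and 55.6 CPM in 70Z/3, -0.74 ± 0.05 on the log2 scale (SE), and passed the edgeR test against 1.5-fold (adjusted p = 0.00318). It was the one small subunit gene called lower in the test against 1.5-fold. Mrps9 and Mrps10, with bacterial relatives in the head of the small subunit, fell by 0.62 and 0.59, and the mitochondrial Mrps35 fell by 0.49. For Mrps9 the libraries held 63.8, 62.6 and 58.5 CPM in P6D4 and 95.8, 95.5 and 93.1 CPM in 70Z/3, so the lines were apart although the difference was not called against 1.5-fold (edgeR adjusted p = 0.141). Mrps7, Mrps11, Mrps14, Mrps15, Mrps21, Mrps22, Mrps23 and Mrps27 were not called. Their log2 fold changes ran from -0.09 for Mrps27 to 0.12 for Mrps22, and the lines overlapped in each.

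In the large subunit Mrpl54, a protein found only in mitochondria, was at 71.3, 70.3 and 70.2 CPM in P6D4 and 31.9, 33.1 and 33.0 CPM in 70Z/3. Its fold was 2.16 (log2 1.11 ± 0.04, SE), past 2-fold in edgeR (adjusted p = 0.00403) but not by DESeq2's Wald test against 2-fold (adjusted p = 0.203). Mrpl17, the relative of bacterial L17, followed with 78.5, 74.8 and 79.7 CPM in P6D4 and 36.8, 39.7 and 40.9 CPM in 70Z/3. All P6D4 values were above all 70Z/3 values by a wide margin, and the log2 fold change was 0.99 ± 0.05 (SE). Mrpl58, a peptidyl-tRNA hydrolase built into the ribosome that can free stalled chains, was at 59.3, 59.0 and 55.9 CPM in P6D4 and 31.1, 30.9 and 32.1 CPM in 70Z/3, higher by 0.89 ± 0.04. The other genes among the 10 most raised were Mrpl14, Mrpl22, Mrpl27 and Mrpl48, at 0.88, 0.84, 0.83 and 0.73, all called against 1.5-fold. Mrpl14 holds the docking site of an assembly factor, Mrpl22 lines the tunnel through which the new chain leaves, Mrpl27 reaches to the peptidyl transferase centre and Mrpl48 lies in the central protuberance. Reads of Mrpl48 can be shared with its pseudogene Mrpl48-ps, which held 298, 280 and 266 counts in P6D4 and 82, 83 and 74 counts in 70Z/3.

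Mrpl44 was lower in P6D4 than in 70Z/3 by more than any other gene of the family. It encodes a protein with a fold of the RNase III family near the exit of the tunnel, and variants of the human gene are known from infantile heart muscle disease. The libraries held 19.2, 19.4 and 19.6 CPM in P6D4 and 61.0, 62.3 and 60.5 CPM in 70Z/3. The lines were far apart, and the P6D4 level was 0.316 of the 70Z/3 level (log2 -1.66 ± 0.04, SE; edgeR adjusted p = 3.33e-10 against 2-fold). The bounds of Mrpl44 in RefSeq overlap those of Wdfy1, which fell by 2.18 in P6D4 (log2 scale). The sources used here do not say whether counting kept strand. Reads that matched more than 1 gene were set aside as ambiguous and given to none, 0.382 to 0.424% of uniquely aligned reads. Other reads where the bounds overlap may be assigned to either gene. The part of Wdfy1 in the value of Mrpl44 was not tested.

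Other large subunit genes fell by less than 2-fold. Mrpl24, which like Mrpl44 lies at the exit of the tunnel, was at 44.2, 43.0 and 42.0 CPM in P6D4 and 87.7, 84.9 and 84.1 CPM in 70Z/3. The lines were far apart, at -0.99 ± 0.04 on the log2 scale (SE), not called against 2-fold (edgeR adjusted p = 0.847). Mrpl4, which lines the tunnel, was at 48.6, 46.0 and 44.9 CPM in P6D4 and 75.9, 81.1 and 81.1 CPM in 70Z/3, and fell by 0.77. Mrpl16, the relative of bacterial L16, fell by 0.76 and Mrpl19 by 0.50. Mrpl53, a protein of the stalk base, had only 28, 15 and 20 counts in P6D4 and 33, 34 and 33 counts in 70Z/3. Its log2 fold change of -0.83 carried an SE of 0.23 and was not called against 1.5-fold (edgeR adjusted p = 0.113), and its bounds overlap those of Ccdc142. Mrpl3, Mrpl11, Mrpl15, Mrpl20, Mrpl23, Mrpl37, Mrpl43 and Mrpl57 were not called, with log2 fold changes from -0.07 for Mrpl3 to 0.09 for Mrpl11. Of these 8, the lines did not overlap for Mrpl43, at a mean of 51.5 CPM in P6D4 against 49.6 CPM in 70Z/3 (edgeR adjusted p = 0.199).

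**Figure D3:**
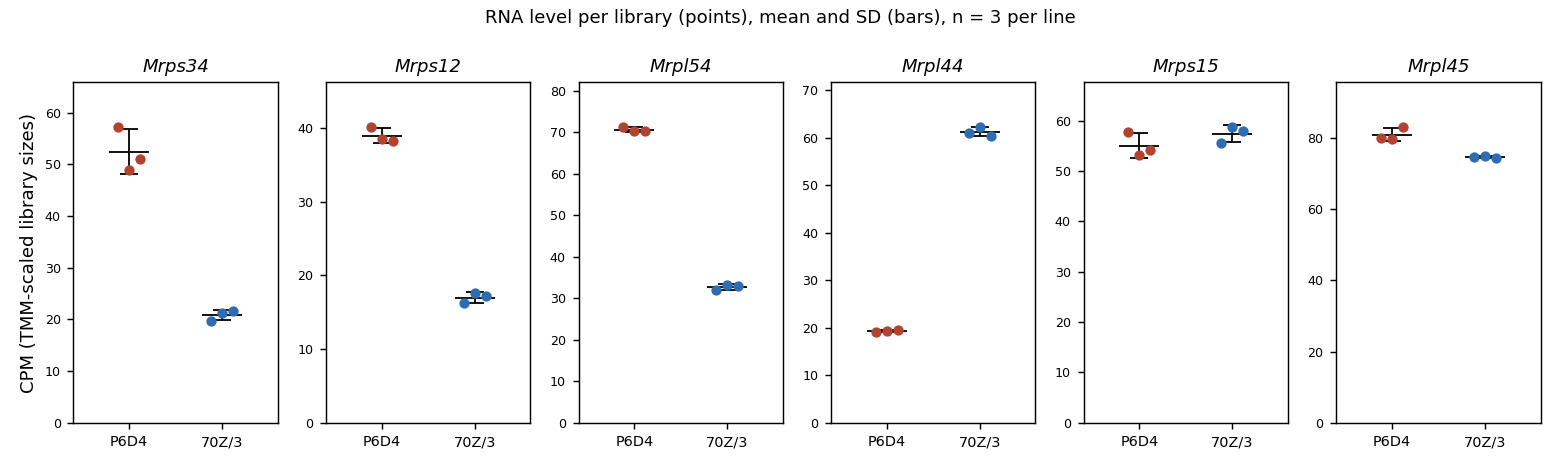
CPM per library (y axis, from 0, on TMM-scaled library sizes) is drawn as points for 6 genes, P6D4 left and 70Z/3 right, with the mean and SD as bars (n = 3). Mrps34, Mrps12 and Mrpl54 lie higher in P6D4, Mrpl44 lies lower at 19.4 against 61.2 CPM, Mrps15 overlaps and Mrpl45 lies higher by a narrow margin.

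The remaining called genes differed by less. In the large subunit 22 of them rose in P6D4, with log2 fold changes from 0.11 for Mrpl9 to 0.63 for Mrpl38, a protein of the central protuberance. Mrpl10 and Mrpl12, which form the stalk that recruits the translation factors, are among these, at 0.56 and 0.40. Another 7 fell, from -0.45 for Mrps18a to -0.11 for Mrps30. In the small subunit 8 rose, from 0.19 for Mrps31 to 0.53 for Mrps16, the relative of bacterial S16, and 3 fell, from -0.38 for Mrps18c to -0.12 for Mrps17.

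Miz1 peaks near these genes were few. The authors' lists hold 21629 peaks in P6D4 and 10462 in 70Z/3. In the P6D4 list, 1 of the 77 genes, Mrps15, had a peak summit no more than 1 kb from either end of the gene (1.3%, exact Clopper-Pearson 95% interval 0.0329 to 7.02%), where 1.08% of 21887 protein-coding genes and 1.23% of those tested for RNA had one. In the 70Z/3 list the 2 genes were Mrps15 and Mrpl45 (2.6%, interval 0.316 to 9.07%), where 2.98% of protein-coding genes and 3.94% of the tested ones had one. The intervals cover counting error only. Mrps15 alone had a summit in both lists (1.3%), where 0.672% of protein-coding genes had one, and 2.6% had one in either list, where 3.39% of protein-coding genes did. With all listed peaks and the 1 kb limit, the share in each line is close to the background. Counting only peaks with a -log10 q of at least 10 leaves the same genes, and then 0.631% of protein-coding genes in P6D4 and 1.12% in 70Z/3 had a summit. With a fold of at least 10 the genes are again the same, against 0.525% of protein-coding genes in P6D4 and 0.832% in 70Z/3. These counts of 1 and 2 genes were not tested against those shares. The libraries differed in usable depth: per the file headers, 2067731 of 60841509 tags remained in P6D4 once duplicates were removed, and 4484034 of 30865119 in 70Z/3. A gene without a summit near its ends is therefore one at which none was listed at this depth.

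Summits inside a gene and farther than 1 kb from its ends are not in these counts. This was looked at after the values were seen. Anywhere between the RefSeq bounds, 3 of the 77 genes had a summit in the P6D4 list (3.9%), Mrps15, Mrps23 and Mrps28, where 8.91% of protein-coding genes had one. In the 70Z/3 list there were 6 (7.79%), the same genes with Mrpl45, Mrps2 and Mrps27, against 10.0% of protein-coding genes. Longer genes have more room for a summit, and gene length was not taken into account.

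At Mrps15, which encodes the relative of bacterial S15 in the small subunit, the peaks of both lines lay over the start printed above. The P6D4 peak spanned chr4:126046716-126047215 with its summit at 126046964, 36 bp downstream of the start, a pileup of 40 tags and a fold over local background of 31.5, the authors' values. It ranked 43 by fold in its list. The 70Z/3 peak spanned chr4:126046668-126047377 with its summit at 126046975, 47 bp downstream of the start, a pileup of 223 and a fold of 133.8, and ranked 28. The summits were 11 bp apart, and both fall on the last bases of the printed window, beside its ATTGG. Pileups and folds of the 2 lists come from libraries of different depth and are not compared. The RNA of Mrps15 was at 57.8, 53.2 and 54.1 CPM in P6D4 and 55.5, 58.8 and 58.0 CPM in 70Z/3. The lines overlapped and the gene was not called (log2 -0.06 ± 0.04, SE; edgeR adjusted p = 0.199).

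At Mrpl45 a peak was listed in 70Z/3 alone. Mrpl45 is a large subunit protein at the tunnel exit that tethers the ribosome to the inner membrane, where its products are inserted. The peak spanned chr11:97315607-97316005, with its summit at 97315813, 97 bp downstream of the start, a pileup of 37, a fold of 19.1 and rank 207. No P6D4 peak overlapped it. The start in the promoter table lies inside the bounds that RefSeq gives for the whole gene, so the summit is 890 bp from the gene end, and Mrpl45 drops out when 500 bp is the limit. Its RNA was at 79.9, 79.6 and 83.1 CPM in P6D4 and 74.5, 74.9 and 74.3 CPM in 70Z/3. The lines did not overlap, the difference was small against the spread of the family, and it was called (log2 0.12 ± 0.04, SE; edgeR adjusted p = 0.00657).

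The other 75 genes had no summit within 1 kb of an end in either list, and 40 of them rose in P6D4, 20 fell and 15 were not called. They make up nearly the whole family, so this split is nearly its own (41, 20 and 16). Over all genes tested, 43.3% were higher and 43.2% lower. That all genes called against 1.5-fold are among them, Mrps34, Mrps12, Mrpl54 and Mrpl44 included, is thus of little weight. By the distance from a summit to a gene end, the next gene in the P6D4 list was Mrps23 at 3768 bp, followed by Mrpl14 at 5671 bp. In the 70Z/3 list these were Mrpl54 at 2081 bp and Mrps2 at 2270 bp. The RNA of Zbtb17 averaged 45.4 ± 0.89 CPM in P6D4 libraries and 41.1 ± 0.51 CPM in 70Z/3 libraries (SD, n = 3), higher by 0.14 on the log2 scale (edgeR adjusted p = 0.00426).

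The promoters were also searched for short motifs of known factors. RefSeq promoters were available for 68 of the 77 genes, 74 windows of 300 bases in all, and both strands were searched. Mrps34 and Mrpl54 are not among the 68. CCGGAAG, the core bound by ETS factors such as GABP, was present in 25 windows (33.8%), against 11.6% of 21263 windows of protein-coding genes and 17.6% of the 12109 windows of tested genes. In Mrps12 it starts 1 base downstream of the first transcribed base. AAGATGG, a variant core of YY1 sites, was in 17.6% of the windows, against 6.24% of all and 7.12% of tested genes. The other YY1 core searched, AAATGGC, was in 6.76%, against 3.94% and 4.12%. GCATGCG, part of the site of NRF1, was in 9.46%, against 4.44% and 6.28%. For CCAAT (39.2% against 38.2% and 38.0%) and for CACGTG, the E-box that Myc binds (9.46% against 7.84% and 9.7%), the shares were near those of other genes. The shares are of windows, and a gene with several starts counts more than once. The 7 windows with CACGTG belong to 5 genes, and the 29 with CCAAT to 26. None of these shares was tested, and a match of letters is not a bound site.

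Letters proposed for Miz1 were rare. ATCGAT was in 2 windows (2.7%), those of Mrps22 and Mrps23, against 0.856% of all windows, and GGTAATC in 1 (1.35%), that of Mrps22, against 0.988%. Neither Mrps15 nor Mrpl45 held ATCGAT or GGTAATC in its window, which says only that these letters are not in these 300 bases. Base composition was near that of other tested genes, with a median GC content of 58.8% against 60.3% and a median of 21.5 CG pairs against 20.

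More of the genes rose on chromosomes whose genes as a whole were higher in P6D4. Chromosomes differed in the median log2 fold change of all their tested genes, from -0.50 on chromosome 6 to 0.90 on chromosome 15. On the 9 chromosomes with a median above 0, 30 of 41 mitochondrial ribosomal protein genes rose in P6D4, 4 fell and 7 were not called, where 51.2% of all genes on these chromosomes were higher and 35.8% lower. On the 8 with a median below 0, 11 of 36 were higher, 16 lower and 9 not called, where 33.3% of all genes were higher and 54.2% lower. Chromosome 11 carried 11 of the genes, 9 of them higher and 0 lower, where 51.1% of all its tested genes were higher and 35.5% lower (median 0.16). Chromosome 6 carried 7, of which 2 rose and 5 fell, where 24.4% of all its genes were higher and 66.5% lower. Of the 5 on chromosome 1, 3 fell and 0 rose, where 27.2% of all genes were higher and 62.5% lower (median -0.46). All 3 genes on chromosome 5 fell, where 24.4% of all genes were higher and 62.6% lower (median -0.36). Set against its own chromosome's median, a gene was on the higher side in 52 of 77 cases (67.5%), with a median difference of 0.17. Mrpl44 stayed lower, at -1.20, after the median of chromosome 1 was taken off, and Mrps34 and Mrps12 stayed higher by 1.21 and 1.05. Copy number was not measured, and its part in these values was not tested.

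**Figure D4:**
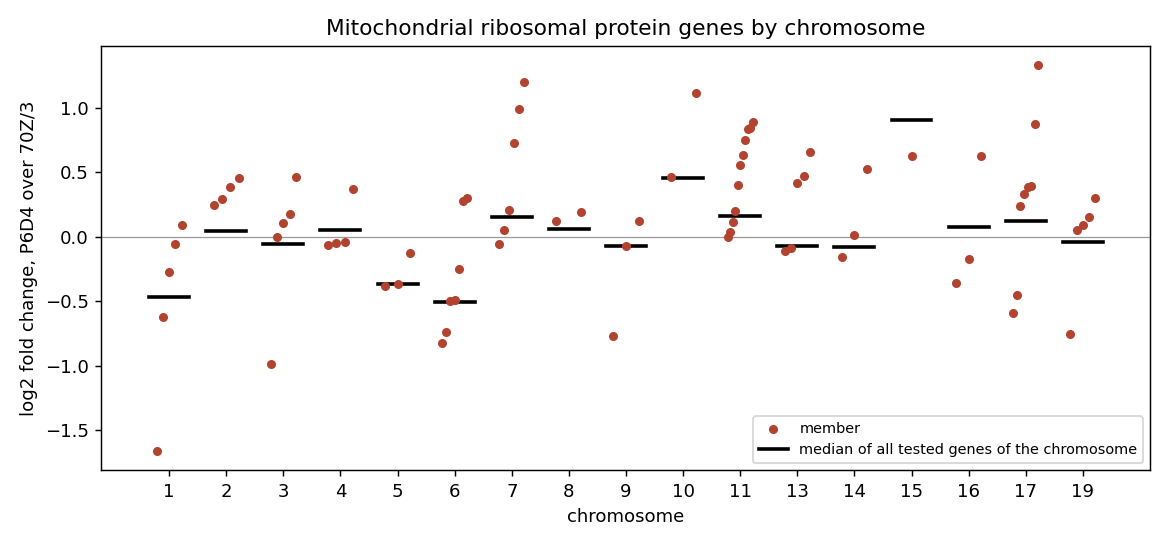
Log2 fold change, P6D4 over 70Z/3 (y axis), of each gene is drawn as a red point on its chromosome (x axis), beside the median of all tested genes of that chromosome as a black bar. Chromosomes without such a gene are left out. Red points lie mostly above 0 on chromosomes 11 and 17 and mostly below 0 on chromosomes 1, 5 and 6, where the black bars are below 0 as well.

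Some of these genes start head to head with another gene. A protein-coding gene with a start within 1 kb on the opposite strand was found for 25 of the 68 genes with RefSeq promoters. The share of all protein-coding genes with such a partner was not counted. Both genes could be tested in 24 pairs, with Mrpl46 and Mrps11 being each other's partner. Both genes were called in 15 pairs, 11 of them in the same direction and 4 in opposite directions. Over all such pairs in the table, 347 of 491 called pairs (70.7%) went the same way, so the share among these genes is near the background. Mrps12 starts 147 bp from Sars2, which charges the mitochondrial serine tRNA. Both were higher in P6D4, by 1.20 and 0.85. Mrpl14 and Tmem63b, 131 bp apart, were higher by 0.88 and 0.95, and Mrpl18 and the chaperonin gene Tcp1 by 0.33 and 0.47. In the pairs called in opposite directions, Mrpl27, Mrpl40, Mrpl50 and Mrpl51 were higher in P6D4 and their partners Eme1, Hira, Zfp189 and Ncapd2 lower. The bounds of 20 of the 77 genes overlap those of another protein-coding gene, among them Mrps25 with Nr2c2 (-0.66) and Mrps23 with Cuedc1 (2.56). Reads that matched both genes were set aside as ambiguous in counting, and other reads within the shared bounds may be assigned to either gene.

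**Figure D5:**
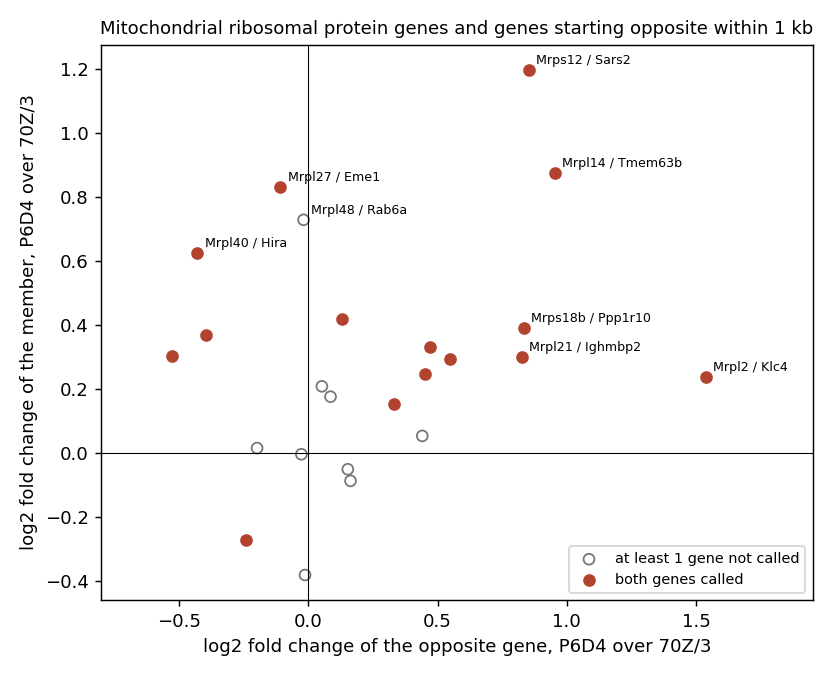
The log2 fold change, P6D4 over 70Z/3, of a mitochondrial ribosomal protein gene (y axis) is drawn against that of the gene that starts opposite it within 1 kb (x axis), 1 point per pair. Filled points are the 15 pairs with both genes called, of which 11 lie in the upper right or lower left part, and open points have at least 1 gene not called.

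Counts for the other genes of mitochondrial translation are read against the 43.3% of all tested genes that were higher in P6D4 and the 43.2% that were lower. Of 5 further ribosomal proteins with other names, 3 were higher in P6D4 and 2 lower. Dap3, a GTP-binding protein of the small subunit, averaged 166 ± 0.96 CPM in P6D4 libraries and 93.0 ± 1.4 CPM in 70Z/3 libraries (SD, n = 3), higher by 0.84 on the log2 scale, and Aurkaip1 was higher by 0.42. Ptcd3 and Gadd45gip1 fell by 0.58 and 0.41. Of 28 genes for assembly of the mitochondrial ribosome, 10 rose, 13 fell and 5 were not called, and the median was -0.04. Ybey, an RNA endonuclease, and Mtg1, a GTPase of large subunit assembly, were higher by 1.62 and 1.37. Rcc1l was lower, at -1.05. The GTPase gene Gtpbp10 had 0 counts in every P6D4 library and 5.11 ± 0.17 CPM in 70Z/3 (SD, n = 3), at least 88.9-fold lower in P6D4 against a floor of 3 counts per library.

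Of 15 translation factors, 7 rose, 6 fell and 2 were not called, and the median log2 fold change was -0.02. Tsfm, the exchange factor of the elongation factor Tufm, was at 79.9, 75.5 and 77.6 CPM in P6D4 and 32.3, 36.4 and 37.1 CPM in 70Z/3. The lines were far apart, at 1.14 ± 0.05 on the log2 scale (SE; edgeR adjusted p = 0.00572 against 2-fold). The recycling factor gene Mrrf was higher by 0.66, and Taco1, an activator of translation, and Gfm2, a recycling factor, fell by 0.53 and 0.50. Lrpprc, which stabilises mitochondrial messengers, fell by 0.36. Of 19 genes listed for mitochondrial tRNA synthetases, 8 were higher, 7 lower and 4 not called (median 0.08). Among the 19, Gars and Kars encode the cytosolic enzyme as well. Ears2 and Sars2 were higher by 0.99 and 0.85, and Mars2 and Gars were lower, at -1.25 and -0.94. Gars averaged 373 CPM in P6D4 and 714 CPM in 70Z/3, and its value cannot be assigned to the mitochondrial enzyme. Mars2 lies on chromosome 1 and Gars on chromosome 6, both with medians below 0.

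Of 14 genes that copy and read mitochondrial DNA, 8 were higher, 3 lower and 3 not called (median 0.26), where 43.3% of all genes tested were higher and 43.2% lower. Polg2, the accessory subunit of the polymerase, and the exonuclease Mgme1 were higher by 1.00 and 0.99. Tfam, which packs mitochondrial DNA and starts its transcription, averaged 139 ± 3.4 CPM in P6D4 libraries and 86.2 ± 0.78 CPM in 70Z/3 libraries (SD, n = 3), higher by 0.69. Ssbp1 fell by 0.23. The topoisomerase gene Top1mt was at 0.044 CPM in P6D4, on 7 counts in all, and 8.86 CPM in 70Z/3.

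The RNAs that the ribosome contains or reads were also measured. Both ribosomal RNAs of mitochondria were higher in P6D4, mt-Rnr1 by 0.58 and mt-Rnr2 by 0.55 on the log2 scale. In the libraries, mt-Rnr2 stood at 1555, 1698 and 1644 CPM in P6D4 and 1117, 1097 and 1127 CPM in 70Z/3, with no overlap. Means of mt-Rnr1 and mt-Rnr2 in P6D4, 491 and 1633 CPM, were below the 7677 CPM of the messenger mt-Co1. How the libraries treated ribosomal RNA is not described here, so these values are not read as amounts of ribosome. Of the 7 messengers with a mean of at least 1 CPM in a line, a limit set after the values were seen, 4 rose, 1 fell and 2 were not called. The RNA of mt-Nd6 averaged 66.7 ± 2.2 CPM in P6D4 libraries and 28.1 ± 0.99 CPM in 70Z/3 libraries (SD, n = 3), higher by 1.24. It is read from the opposite strand to the other messengers and overlaps mt-Nd5, so without a known strand setting its value is uncertain. The messenger mt-Nd2 was higher by 0.31, and mt-Nd4 was lower, at -0.30. The messengers mt-Co2, mt-Co3, mt-Atp6, mt-Atp8, mt-Nd3 and mt-Nd4l averaged 0.236 CPM or less in both lines while mt-Co1 averaged 7677 CPM in P6D4 against 7325 CPM in 70Z/3. Near-identical nuclear copies of such sequences exist, and these values are not read as levels.

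Among 12 tested regulators of nuclear genes for mitochondria, 3 rose in P6D4, 4 fell and 5 were not called. Nrf1 averaged 82.8 ± 2.4 CPM in P6D4 libraries and 83.1 ± 0.44 CPM in 70Z/3 libraries (SD, n = 3) and was not called (edgeR adjusted p = 0.9). Gabpa, the DNA-binding subunit of GABP, averaged 144 ± 3.3 CPM in P6D4 libraries and 136 ± 4.1 CPM in 70Z/3 libraries (SD, n = 3) and was not called (edgeR adjusted p = 0.054), while its partner Gabpb1 fell by 0.58. Yy1 fell by 0.37. Myc, a general activator of ribosome and mitochondrial genes, was higher by 1.84, the largest difference in this list. It lies on chromosome 15, where 77.6% of all tested genes were higher and the median was 0.90.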

How the data were processed

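RNA-Seq counts per Ensembl gene were used as the authors deposited them, 1 table per library; per the submitters' processing notes tools of the series include HTSeq, TopHat2 2.0.10 and Bowtie2 2.10, and builds mm10 and GRCm38. Whether counts are by strand is not given. Lines of HTSeq that name no gene were left out. They included reads that matched no counted feature, at 14.5 to 16.0% of uniquely aligned reads, and ambiguous reads, at 0.382 to 0.424%. Non-unique alignments came to 1.10 to 1.14 per count in P6D4 and 1.41 to 1.44 in 70Z/3.

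Counts were filtered with filterByExpr, scaled with TMM and tested with the quasi-likelihood test of edgeR 4.0.16 (R 4.3.3), with line as the only term and Benjamini-Hochberg adjustment over 13750 genes. Differences over 1.5-fold and 2-fold were tested with glmTreat. CPM use TMM-scaled library sizes, and the SE is the log2 fold change divided by the square root of F, not a fitted standard error. Replicate counts varied beyond sampling noise, with a chi-square of 2.46 to 13.9 per degree of freedom. On simulated counts (1 draw, 13530 genes), edgeR called 41 of 50 genes changed 1.3-fold and 48 of 50 changed 2-fold, with 11 false calls. The draw gave all genes the same dispersion and changed far fewer genes than were called here. It therefore does not give the recovery or the false calls in these data.

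Miz1 peaks were called by the authors with MACS 2.0.10.20120913 on 1 library per line at a q-value of 0.01, per the file headers. The deposited pileup is a signal in tags at the summit, the fold a ratio over local background, and the -log10 p and -log10 q are the authors' as well. Summits were set against RefSeq gene bounds (GRCm38.p6), and shares carry Clopper-Pearson intervals (scipy 1.17.1). A floor of 3 counts per library stands for 0.

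The members and gene lists were chosen with earlier results of these data known. Named are all members with a peak, the 10 most raised and 10 most lowered, those over 2-fold or not called, the 2 most raised and 2 most lowered called genes of each further list, and 6 fixed regulators; other names were chosen after their values were seen. Alternatives were other scalings, DESeq2 1.42.0, other filters, each library left out, a replicate block, and other peak limits.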

Additional observations from a re-analysis of the deposited data

How the results depend on the processing

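No mitochondrial ribosomal protein gene changed direction while called under any of the 13 alternative settings for RNA. Of 61 called genes, 55 kept their call in every setting that tested them. The exceptions were Mrpl34, Mrpl52, Mrpl9, Mrps17, Mrps30 and Mrps6, and 8 genes not called gained a call in some setting. Higher calls ranged from 39 to 46 and lower calls from 16 to 22; with each library left out in turn they ranged from 39 to 43 and from 17 to 22. Libraries with the same replicate number did not deviate together (correlations across genes of -0.158, -0.136 and 0.041, and no P6D4 library correlated best with its own number), so they are not treated as paired; with the replicate block, 40 genes were higher, 20 lower and 17 not called. Other scalings moved the median of all genes by at most 0.06 on the log2 scale. Mrpl53, counted among the 55 that kept their call, was not tested where at least 1 CPM was required and has no call there. With no filter, 2 mitochondrial messengers were lower, and with library totals or upper quartile scaling 5 regulators were higher. A limit of 500 bp left 1 gene with a Miz1 summit in 70Z/3; 2 kb, a -log10 q of at least 10 and a fold of at least 10 left the counts of genes with a peak as they were, while the shares of protein-coding genes moved, as given above for the last 2. Summits anywhere within gene bounds, an alternative chosen after seeing the data, gave 3 genes in P6D4 and 6 in 70Z/3. The cause of these changes was not tested. Mrpl53 had 15 to 34 counts per library, the lowest level of the family.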
